A study of Mus musculus with 40 samples.

Results

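The blood-retina barrier genes were followed across 40 whole mouse retinas: Cldn5, Ocln, Tjp1, Lsr, Mfsd2a, Slc2a1, Abcb1a and Cav1. They were chosen by symbol, and all 8 were found among the 42037 gene symbols of the deposited tables. All 8 also passed the filter on low counts, which left 23495 genes for testing.

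Retinal capillaries hold back most solutes from the neural tissue. Endothelial cells do this by sealing their contacts with tight junctions, by keeping vesicle transport across the cell low, and by moving nutrients and drugs through dedicated carriers. Norrin and Wnt ligands acting through beta-catenin maintain this state, and VEGFA and angiopoietin-2 (ANG-2) loosen it in diseased retina. Several of the 8 genes are not restricted to vessels: GLUT1, the product of Slc2a1, also serves photoreceptors, Müller glia and the pigment epithelium, and caveolin-1, the product of Cav1, is abundant in Müller glia.

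The retinas came from C57BL/6J mice at postnatal day 17 (P17) or 19 (P19), with 1 whole retina per library and 4 libraries in each of 10 groups. At each age there was 1 group of control mice without retinopathy (nOIR) and 4 groups with oxygen-induced retinopathy (OIR), a model in which 75% oxygen from P7 to P12 stops vessel growth and the return to room air leaves the retina short of oxygen. OIR eyes received 1 µl into the vitreous at P14: control IgG at 0.4 µg/µl, the VEGFA antibody B20.4.1 at 0.2 µg/µl, the ANG-2 antibody LC10 at 0.2 µg/µl, or the bispecific antibody B20.4.1_LC10 at 0.4 µg/µl. An injection of control mice is not mentioned, nor is a mouse or litter given for any retina, so OIR and any effect of the injection cannot be told apart, and p-values measure the spread between these retinas.

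Libraries held 9160000 to 25800000 expected counts (mean 17100000, SD 3520000, n = 40). The photoreceptor list of 14 genes summed to 39400 to 48000 CPM in control retinas at P17 and the endothelial list of 20 genes to 205 to 244 CPM. Of the defining endothelial markers, Pecam1 had 3.51 ± 1.15 CPM and Cdh5 0.494 ± 0.585 CPM in the same 4 retinas (SD). CPM is the expected count of a gene scaled to the size of its library, with TMM scaling of library sizes, so it compares libraries but not genes of different length. In a bulk sample, fewer cells of a type and less RNA per cell cannot be told apart. Lens transcripts set 4 libraries apart and the lowest total set 1 apart: OIR IgG P17 replicate 4, anti-VEGFA P17 replicate 4, anti-ANG-2 P17 replicates 2 and 4, and bispecific P19 replicate 3. The sexes were not balanced, since Y-linked counts were present in all 4 IgG retinas at P19 and absent from all 4 bispecific retinas at that age. At P17 they summed to 196 to 278 CPM in the 4 anti-VEGFA retinas and were at 0 in the 4 anti-ANG-2 retinas. Sex and antibody therefore cannot be told apart in bispecific against IgG at P19 or anti-VEGFA against anti-ANG-2 at P17. Other comparisons with these groups were unbalanced in part, since every other group held retinas with and without high Y-linked counts. They include OIR with IgG against control at P19. There the Y-linked mean on the log2(CPM + 1) scale was 5.44 to 5.65 with IgG and 0.16 to 5.4 in controls. Although each library is of 1 retina, Xist and Y-linked counts stood side by side in some, most in anti-VEGFA P19 replicate 3 (6.71 for Xist and 5.62 for the Y-linked mean on the log2(CPM + 1) scale).

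The 250 bases before the start of Slc2a1 and Cav1, the pair that rose together in OIR, are shown with those of Cldn5, which rose at the later age. They come from RefSeq on GRCm38.p6, are written 5′ to 3′ on the coding strand, and are in lower case except for the core of a hypoxia response element, ACGTG or GCGTG on either strand, which is in capitals.
Slc2a1, chr4:119108495-119108744, plus strand: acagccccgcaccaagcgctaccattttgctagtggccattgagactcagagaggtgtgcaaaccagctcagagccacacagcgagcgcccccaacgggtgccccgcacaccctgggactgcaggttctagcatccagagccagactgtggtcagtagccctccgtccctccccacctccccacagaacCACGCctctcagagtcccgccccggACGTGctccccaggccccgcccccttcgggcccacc
Cav1, chr6:17306085-17306334, plus strand: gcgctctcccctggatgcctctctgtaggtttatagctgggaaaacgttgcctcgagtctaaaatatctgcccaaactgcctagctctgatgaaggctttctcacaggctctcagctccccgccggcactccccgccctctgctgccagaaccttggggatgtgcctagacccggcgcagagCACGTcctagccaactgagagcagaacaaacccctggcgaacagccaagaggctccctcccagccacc
Cldn5, chr16:18776597-18776846, plus strand: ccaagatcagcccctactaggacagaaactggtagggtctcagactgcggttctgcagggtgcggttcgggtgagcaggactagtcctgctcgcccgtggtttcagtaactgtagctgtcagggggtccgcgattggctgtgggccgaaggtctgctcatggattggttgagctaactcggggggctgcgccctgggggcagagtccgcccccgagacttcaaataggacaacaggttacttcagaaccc

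Slc2a1 held 2 such cores, whose first bases lay 61 and 36 bases before the start, and Cav1 held 1 at 68 bases before its first start. The Cldn5 window held none. One or more cores stood in 38.6% of the 32851 promoter windows of this length, so a match is common. Of the other members, Mfsd2a held 4 cores, Lsr 1, and Tjp1 and Abcb1a none. Ocln has 2 starts in the table and held 1 core in the window of each, and the window of the other Cav1 start held none. The hexamers CTTTGA and CTTTGT, the core bound by the TCF and LEF partners of beta-catenin, were searched on both strands too: Abcb1a held 3, Mfsd2a and Lsr 1 each, and the other members none, against 27.6% of all windows with at least 1. The windows of Slc2a1, Lsr, Abcb1a and Tjp1 do not lie exactly at the gene starts of the GENCODE spans given below. Nor do those of the second starts of Ocln and Cav1. The RefSeq start of Slc2a1 is at 119108745, inside its span, which begins at 119108711. The last bases of its window therefore lie within the span, and its core nearest the start reaches into it. The RefSeq start of Lsr is at 30973469, just outside its span, which starts at 30973464 on the minus strand. The RefSeq start of Abcb1a is at 8567091, outside its span, which begins at 8660077. That of Tjp1 is at 65371244, inside its span, which starts at 65527781 on the minus strand. These letters describe the windows and were not measured to be bound.

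In order of level per transcript length, given in TPM, which divides by length and library size, the glucose carrier Slc2a1 led with a median of 160.7 TPM over the 40 retinas (range 91.1 to 278). Caveolin-1, the coat protein of caveolae, followed at 84.9 TPM (36.3 to 155). The tight junction genes were far lower, with claudin-5 at 8.96 TPM (4.1 to 14.2) and the scaffold ZO-1, encoded by Tjp1, at 6.09 TPM (1.91 to 11.7). Mfsd2a, which carries lysophosphatidylcholine with docosahexaenoic acid and holds down caveolar transport, stood at 2.92 TPM, and angulin-1, encoded by Lsr and placed where 3 cells meet, at 2.29 TPM. Occludin (Ocln), a membrane-spanning junction protein, had 1.32 TPM. Abcb1a, the P-glycoprotein drug pump of brain and retinal capillaries, came last at 0.13 TPM (0 to 1.98).

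Slc2a1 exceeded Cav1 in 40 of 40 retinas and Cav1 exceeded Cldn5 in 40 of 40. Cldn5 exceeded Tjp1 in 34, Tjp1 exceeded Mfsd2a in 37, Lsr exceeded Ocln in 33 and Ocln exceeded Abcb1a in 39. Mfsd2a and Lsr were the pair hardest to order, since Mfsd2a was higher in 27 of 40. Cldn5 was deposited as 2 entries with the same value in every retina, ending in a half-count in 20 of them, so each entry appears to hold an equal share of the gene's reads. Its values, the TPM above included, are those of 1 entry unless the sum is named.

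**Figure D1:**
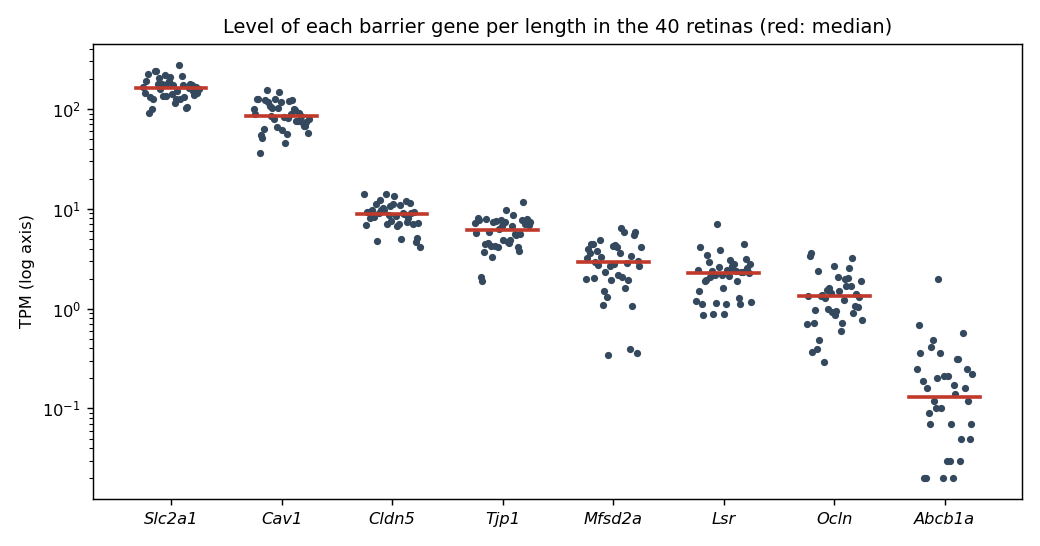
TPM (log axis) of the 8 barrier genes in the 40 retinas, 1 point per retina, with the median in red. Slc2a1 and Cav1 stand above all others, and Abcb1a is at 0 in 3 retinas, which a log axis cannot show.

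The first question was how the barrier genes differ between OIR retinas that received IgG and control retinas. At P17, 2 of the 8 members rose, Slc2a1 and Cav1, and none fell, against 2.36% of all genes called in either direction and 2.11% called higher (edgeR, adjusted p under 0.05). The median log2 change of the 8 was 0.31, against -0.05 for all genes tested. At P19, 1 of the 8 rose, Cldn5, and none fell, against 0.919% of all genes in either direction and 0.821% higher, and the members' median was 0.42 against -0.05.

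**Figure D2:**
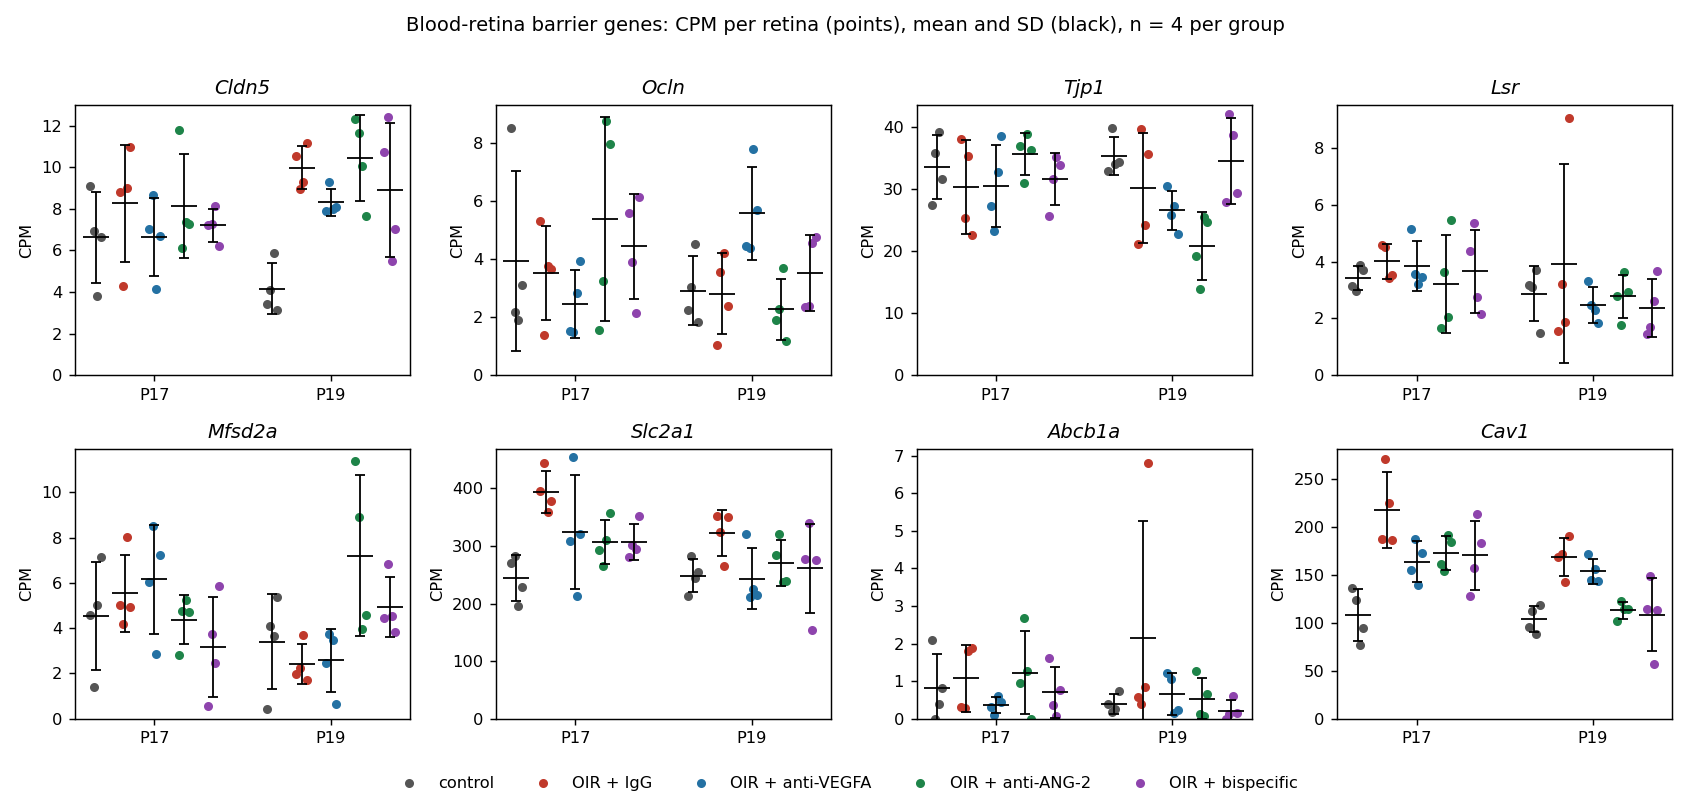
Level in CPM of each barrier gene in every retina (points) with the group mean and SD (black, n = 4), by age and group. Slc2a1 and Cav1 are higher in all 4 OIR retinas with IgG than in all 4 controls at P17, and Cldn5 is higher in all 4 at P19.

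Claudin-5 forms the strands that seal endothelial tight junctions. Its gene lies on chromosome 16 (GRCm38, 18776847 to 18778262, plus strand) as 1 exon. At P19 it stood at 3.44, 4.11, 5.89 and 3.16 CPM in the control retinas and at 10.5, 8.95, 9.29 and 11.1 CPM in the OIR retinas with IgG. All 4 OIR retinas were above all 4 controls, without overlap. Cldn5 rose 2.40-fold (9.98 ± 1.03 against 4.15 ± 1.23 CPM, SD, n = 4 each, log2 1.26 ± 0.31 SE, edgeR adjusted p = 0.034). With both entries summed, the rise was 2.41-fold at 20 ± 2.07 against 8.3 ± 2.46 CPM (edgeR adjusted p = 0.015).

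The call on 1 entry of Cldn5 was not stable to the loss of a retina: it ended without any of 7 of the 8 libraries, all but control replicate 3, with an adjusted p of up to 0.15. It also ended without the filter on low counts (edgeR adjusted p = 0.069) and with the mean of the endothelial list as a covariate (0.17). The call ended too with the log2 of the summed Y-linked CPM (0.077) or a list of Müller glia and astrocyte genes (0.12) as a covariate. Y-linked counts were present in all IgG retinas at P19 and mixed in the controls, so sex and OIR differ together in part. The endothelial list of 20 genes moved with it: its summed level was 192 to 269 CPM in the IgG retinas and 133 to 198 CPM in the controls, none of the 20 was at 0 throughout either group, and its part in the Cldn5 difference was not tested beyond this covariate.

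At P17 Cldn5 ranged from 3.79 to 9.08 CPM in controls and from 4.29 to 10.9 CPM in OIR with IgG, and the groups overlapped (1.25-fold, adjusted p = 0.68). The control mean was 6.62 ± 2.17 CPM at P17 and 4.15 ± 1.23 CPM at P19 (SD, n = 4; 0.628-fold, edgeR adjusted p = 0.75). The OIR effect on Cldn5 was larger at P19 by 0.95 ± 0.43 on the log2 scale, which did not pass after adjustment (edgeR adjusted p = 0.83). No member passed that test of the difference between ages (edgeR, 0 of 8, and 0 by DESeq2), against 0.00426% of all genes. At an unadjusted p under 0.05 there was 1 member, against 1335 of all 23495 genes.

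ZO-1 anchors claudins and occludin to actin. Its gene Tjp1 (chromosome 7, 65296165 to 65527781, minus strand) had 27.4, 35.8, 39.2 and 31.6 CPM in the controls at P17 and 38.1, 25.4, 35.4 and 22.6 CPM in OIR with IgG. The groups overlapped, as they did at P19 with 33 to 39.9 CPM in controls and 21.1 to 39.7 CPM in OIR. The fold was 0.906 at P17 (adjusted p = 0.81) and 0.855 at P19 (adjusted p = 0.74). The 95% intervals of the log2 difference were -0.54 to 0.26 at P17 and -0.62 to 0.17 at P19.

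Occludin (Ocln, chromosome 13, 100496507 to 100552718, minus strand) varied widely within groups. Control retinas at P17 had 8.54, 2.18, 1.91 and 3.1 CPM and OIR retinas with IgG 5.31, 1.37, 3.78 and 3.66 CPM. At P19 controls had 1.83 to 4.53 CPM and OIR retinas 1.04 to 4.22 CPM. Neither difference passed (0.9-fold and 0.965-fold, adjusted p = 0.94 and 0.99), and the interval at P17, from -1.20 to 0.90 in log2, includes changes as large as the rise of Slc2a1 at that age. Without control P17 replicate 1 the log2 difference at that age turned from -0.15 to 0.56 (edgeR adjusted p = 0.7).

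Angulin-1 (Lsr, chromosome 7, 30957770 to 30973464, minus strand) recruits tricellulin to corners between cells. It stood between 2.97 and 3.89 CPM in the controls at P17 and between 3.42 and 4.58 CPM in OIR with IgG (1.17-fold, adjusted p = 0.88). At P19 the OIR retinas had 1.56, 3.22, 1.86 and 9.09 CPM against 1.48 to 3.72 CPM in controls (1.37-fold, adjusted p = 0.78). Replicate 4 of that IgG group was the highest of all 40 retinas, and without it the log2 difference turned from 0.46 to -0.37 (edgeR adjusted p = 0.82).

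GLUT1 carries glucose across the barrier and is a known target of hypoxia-inducible factor. Its gene Slc2a1 (chromosome 4, 119108711 to 119137983, plus strand) had 270, 282, 195 and 228 CPM in the controls at P17 and 395, 444, 359 and 377 CPM in OIR with IgG. All 4 OIR retinas stood above all 4 controls. Slc2a1 rose 1.62-fold (394 ± 36.5 against 244 ± 39.8 CPM, SD, n = 4 each, log2 0.69 ± 0.18 SE, edgeR adjusted p = 0.028). At P19 controls had 213, 282, 245 and 255 CPM and OIR retinas 352, 325, 265 and 350 CPM, which overlapped (1.3-fold, adjusted p = 0.38).

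The P17 call on Slc2a1 ended when control replicate 3 or 4, or IgG replicate 2 or 3, was left out, with an adjusted p of up to 0.19. On the authors' TPM values the rise was 0.36 in log2 and not called (limma adjusted p = 0.23). The median of all genes was -0.25 on that scale, a shift of -0.20 from the counts. Here and below, all genes on TPM are the 18183 with a mean above 0.5 TPM, against 23495 on counts. Relative to that median the rise was 0.60, which was not tested. It was also not called with the Müller glia and astrocyte list as a covariate (adjusted p = 0.46) or with pigment epithelium and lens lists as covariates (0.64).

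Caveolin-1 shapes the caveolae through which plasma proteins cross a leaky endothelium. Its gene Cav1 (chromosome 6, 17306335 to 17341452, plus strand) had 136, 124, 76.7 and 94.6 CPM in the controls at P17 and 187, 272, 225 and 187 CPM in OIR with IgG, again without overlap. Cav1 rose 2.02-fold (218 ± 40 against 108 ± 27.2 CPM, SD, n = 4 each, log2 1.01 ± 0.19 SE, edgeR adjusted p = 0.00097). This call held without any 1 of the 8 libraries (adjusted p at most 0.016) and under 12 of 15 other settings. It ended on TPM values (0.66 in log2, limma adjusted p = 0.059) and with pigment epithelium and lens lists as covariates (adjusted p = 0.087). Relative to the median of all genes on TPM the rise was 0.90, which was not tested.

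At P19 Cav1 had 95.9, 113, 88.8 and 118 CPM in controls and 169, 172, 143 and 191 CPM in OIR with IgG. The groups did not overlap, but the 1.62-fold difference just missed the threshold (edgeR adjusted p = 0.056). DESeq2 called it (adjusted p = 0.011). Groups that did not overlap were seen for Slc2a1 and Cav1 at P17, where 11.4% of all genes showed this, and for Cldn5 and Cav1 at P19, where 11% did.

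Mfsd2a (chromosome 4, 122946850 to 122961188, minus strand) had 4.57, 1.38, 5.04 and 7.14 CPM in the controls at P17 and 5.01, 4.19, 8.01 and 4.94 CPM in OIR with IgG. At P19 the values were 0.446, 4.08, 3.66 and 5.4 CPM against 1.95, 2.24, 3.72 and 1.73 CPM. Both pairs of groups overlapped (1.23-fold and 0.708-fold, adjusted p = 0.86 and 0.8).

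The drug pump Abcb1a (chromosome 5, 8660077 to 8748575, plus strand) was close to the limit of detection. It had a median of 7.645 counts per library, was at 0 in 3 retinas and had 3 counts or fewer in 11 of 40. Abcb1b, a close paralogue next to it on chromosome 5 (8798147 to 8866315, plus strand), had a median of 12 counts, and reads that fit both may have been split between them. At P19 Abcb1a had 0.382, 0.163, 0.248 and 0.749 CPM in controls and 0.585, 0.396, 0.845 and 6.81 CPM in OIR with IgG, so the 5.43-fold fitted difference came from 1 retina (adjusted p = 0.41). A change of Abcb1a was not detectable at this depth.

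**Figure D3:**
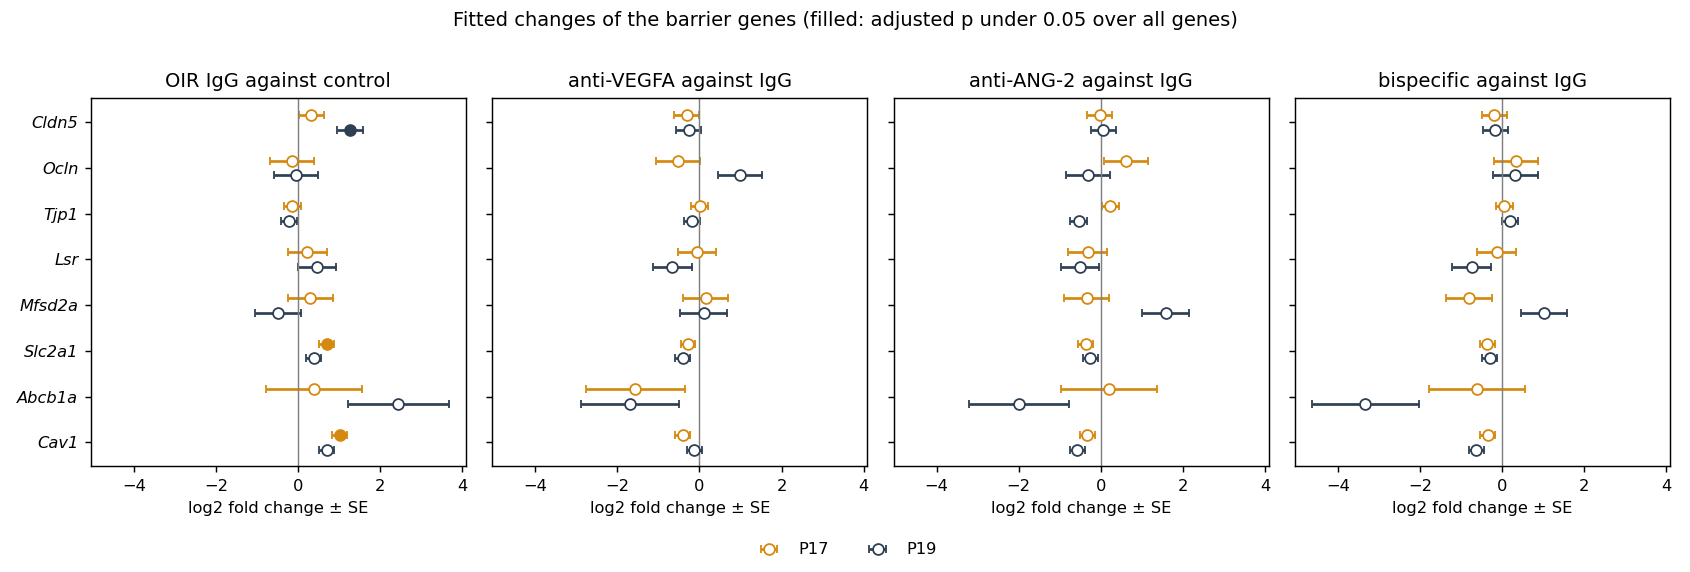
Fitted log2 fold change with its SE for the 8 barrier genes in OIR with IgG against control and in each antibody against IgG, at P17 and P19. Filled points passed an adjusted p under 0.05 over all genes, which only Slc2a1 and Cav1 at P17 and Cldn5 at P19 did, all in the first panel.

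Other genes of the same pathways gave few calls. For scale, 3699 of all 23495 genes had an unadjusted edgeR p under 0.05 at P17 and 2968 at P19. Of 25 further junction genes, 0 were called at either age (edgeR, 1 at an unadjusted p under 0.05 at each), and their median log2 change was 0.02 at P17 and 0.09 at P19. Of 20 further transporter genes, 1 rose at P17: Slc16a1, the lactate carrier MCT1 (404 ± 52.4 against 240 ± 31 CPM, 1.68-fold, adjusted p = 0.0066). Of 13 vesicle genes tested out of 14, 1 rose at P17: Cav2, the partner of caveolin-1 (51 ± 8.57 against 31.3 ± 9.03 CPM, 1.63-fold, adjusted p = 0.017). Neither list gave a call at P19 (edgeR, 3 in each at an unadjusted p under 0.05). Plvap, the diaphragm protein of leaky endothelium, had 6.12 ± 1.42 against 4.31 ± 1.97 CPM at P17 and did not pass (1.42-fold, adjusted p = 0.58). The 22 genes of Norrin and Wnt signalling gave 0 calls at either age (edgeR, 2 at P17 and 0 at P19 at an unadjusted p under 0.05), with medians of 0.09 and -0.01.

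Vessel cell markers rose in part. At P17 the endothelial list gave 2 of 20, Egfl7 (2.08-fold, adjusted p = 0.027) and Cd34 (2.21-fold, 0.035), and at P19 1, the endothelial sialomucin Emcn (7.12-fold, 0.02). Its median log2 change was 0.57 at P17 and 0.59 at P19, against -0.05 for all genes at both ages. Of 13 pericyte and smooth muscle genes, 3 rose at P17, Acta2 (7.21-fold), Higd1b (3.21-fold) and Rgs5 (1.95-fold), and 2 at P19, Higd1b (5.97-fold) and Rgs5 (2.11-fold). The median log2 change of these 13 was 0.07 at P17 and 0.71 at P19. Pecam1 and Cdh5 gave no call at either age. The hypoxia target Vegfa rose 2.35-fold at P17 (adjusted p = 0.00016) and 1.70-fold at P19 (0.047).

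Other cell types moved along with these groups. At P17 the Müller glia and astrocyte list had 3 of 12 tested genes called higher, Gfap, Cp and Vim, and its summed level was 5840 to 6150 CPM in OIR with IgG against 3020 to 5350 CPM in controls. The pigment epithelium list had 4 of 14 called higher, with Rpe65 at 96.5 ± 32.2 against 20.8 ± 9.48 CPM, and a median summed level of 1570 against 605 CPM. Lens RNA reached 4100 CPM in 1 IgG retina against at most 16.9 CPM in controls, where Crygb and Lim2 were at 0. The lens crystallin Cryaa had 368 ± 674 against 0.0337 ± 0.0673 CPM. At P19 the Müller glia and astrocyte list stood at 6010 to 6690 against 3770 to 4350 CPM. Of its 12 tested genes, 1 was called higher at that age, Apoe. In the pigment epithelium and lens lists, 0 of 14 and 0 of 16 genes were called at P19. Their median log2 changes were -0.02 and 0.16. The median summed level of the pigment epithelium list at P19 was 1650 CPM with IgG against 1760 CPM in controls. The microglia list had 8 of 11 genes called higher at both ages, the complement genes C1qa, C1qb and C1qc among them. It summed to 270 to 445 CPM in OIR with IgG against 85.9 to 127 CPM in controls at P17, and to 264 to 330 against 84.3 to 120 CPM at P19, without overlap at either age. Of the red blood cell list, 4 of 6 tested genes were called higher at P17 (163 to 1500 against 92.7 to 249 CPM) and 0 at P19. The part of the microglia and red blood cell lists was not tested. That of the other lists was not tested beyond the covariate fits named above. Without the 5 libraries that stand apart, Slc2a1 at P17 (adjusted p = 0.023), Cav1 at P17 (0.00024) and Cldn5 at P19 (0.039) were still called, and Cav1 at P19 was called as well (0.026). Of these 5 libraries, only IgG replicate 4 at P17 belongs to a group compared here. None is in the P19 comparison, which they enter through the fit of all 40 libraries alone.

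The second question was whether an antibody changed the barrier genes relative to IgG. No member passed at P17 or at P19 with any of the 3 antibodies (edgeR, 0 of 24 tests at each age). At an unadjusted p under 0.05 there was 1 member with anti-VEGFA and 0 with the others at P17. At P19 there were 1, 3 and 2 with anti-VEGFA, anti-ANG-2 and the bispecific antibody. Of all 23495 genes, 1128, 1795 and 921 were under that threshold at P17 in the same order, and 2615, 2935 and 1936 at P19. DESeq2 called 0 at P17 and 1 at P19, but the shares of all genes in this paragraph are those of edgeR. Few genes were called at all: 0% in the 3 comparisons at P17, and 0%, 0.0979% and 0.0468% at P19. The 3 comparisons of an age share the same 4 IgG retinas, so a high or low IgG group moves all of them. The values are set side by side only. Between bispecific and IgG retinas at P19, sex and antibody cannot be told apart.

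Cav1 was below the IgG mean in all 6 comparisons, by 0.13 to 0.63 in log2, though not with anti-VEGFA at P19 once the Müller glia and astrocyte list was a covariate (0.24). At P19 it had 172, 145, 156 and 144 CPM with anti-VEGFA, 102, 123, 114 and 114 CPM with anti-ANG-2, and 115, 149, 57.5 and 114 CPM with the bispecific antibody, against 143 to 191 CPM with IgG. The anti-ANG-2 retinas were all below the IgG retinas (113 ± 8.73 against 169 ± 19.9 CPM, SD, n = 4, 0.671-fold, edgeR adjusted p = 0.17), and 4.8% of all genes did not overlap in this comparison. The bispecific retinas overlapped them in 1 retina (109 ± 37.9 CPM, 0.646-fold, adjusted p = 0.32), and anti-VEGFA retinas had 154 ± 13.1 CPM (0.915-fold, adjusted p = 0.85).

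For Cav1 with anti-ANG-2 at P19, other models gave a call: DESeq2, and limma on TPM values (-0.92 in log2, adjusted p = 0.01). On TPM the median of all genes in this comparison was -0.29, and relative to it the Cav1 difference was -0.63, which was not tested. With the mitochondrial share as a covariate the adjusted p was 0.97. At P17 Cav1 had means of 164 ± 21.3, 173 ± 17.8 and 171 ± 36.4 CPM with anti-VEGFA, anti-ANG-2 and the bispecific antibody, against 218 ± 40 CPM with IgG (SD, n = 4). The folds were 0.754, 0.794 and 0.783 (edgeR adjusted p = 1, 0.69 and 1).

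Slc2a1 was likewise below IgG in all 6, by 0.25 to 0.41 in log2, though not with anti-ANG-2 at P19 under the same covariate (0.05). At P17 it had 309, 454, 214 and 321 CPM with anti-VEGFA, 293, 266, 311 and 357 CPM with anti-ANG-2, and 281, 301, 295 and 353 CPM with the bispecific antibody, against 359 to 444 CPM with IgG. The anti-ANG-2 and bispecific retinas were all below the IgG retinas (0.778-fold and 0.781-fold, edgeR adjusted p = 0.66 and 1). Non-overlap of this kind was seen for 9.07% and 3.38% of all genes in these comparisons. At P19 the means were 243 ± 52.4, 271 ± 39.7 and 262 ± 77.3 CPM against 323 ± 40.4 CPM with IgG (SD, n = 4; adjusted p = 0.41, 0.61 and 0.72).

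Lsr was also below IgG in 6 of 6 comparisons on counts, none called (adjusted p from 0.62 to 1), and slightly above it with anti-VEGFA at P17 on TPM values (0.02 in log2). At P19 its IgG mean rests on the single high retina named above: without IgG P19 replicate 4, Lsr was above IgG with all 3 antibodies, by 0.16, 0.32 and 0.09 in log2 with anti-VEGFA, anti-ANG-2 and the bispecific antibody. For Cldn5 no difference from IgG passed: at P19 it had 7.88 to 9.29 CPM with anti-VEGFA, 7.67 to 12.3 CPM with anti-ANG-2 and 5.48 to 12.4 CPM with the bispecific antibody, against 8.95 to 11.1 CPM with IgG. The log2 differences were -0.26, 0.06 and -0.16 (adjusted p = 0.79, 0.97 and 0.94), and their intervals together ran from -0.86 to 0.66.

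Mfsd2a at P19 had 11.4, 8.91, 3.96 and 4.6 CPM with anti-ANG-2 and 4.45, 6.85, 4.56 and 3.81 CPM with the bispecific antibody, against 1.95, 2.24, 3.72 and 1.73 CPM with IgG. Neither antibody group overlapped IgG, which 4.8% and 3.77% of all genes also showed. The fold was 2.99 with anti-ANG-2 (7.21 ± 3.55 against 2.41 ± 0.897 CPM, SD, n = 4, edgeR adjusted p = 0.21) and 2.04 with the bispecific antibody (adjusted p = 0.67), so neither passed. With anti-VEGFA it had 0.658 to 3.74 CPM (1.07-fold, adjusted p = 0.97).

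At P17, anti-ANG-2 retinas had Mfsd2a levels of 2.79 to 5.23 CPM against 4.19 to 8.01 CPM with IgG (0.789-fold, adjusted p = 0.94). The change between ages of the anti-ANG-2 effect was 1.92 ± 0.79 in log2 (edgeR adjusted p = 0.37). For the bispecific antibody it was 1.83 ± 0.79 (edgeR adjusted p = 1). No member passed any of these 3 tests (edgeR, 0 of 24), and 0% of all genes were called in each. At an unadjusted p under 0.05 were 0, 2 and 1 members with anti-VEGFA, anti-ANG-2 and the bispecific antibody. Of all 23495 genes, 1122, 2581 and 1055 were under that threshold.

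Tjp1 at P19 had 19.2, 13.8, 25.5 and 24.7 CPM with anti-ANG-2, against 21.1 to 39.7 CPM with IgG. The groups overlapped (0.689-fold, edgeR adjusted p = 0.24). Bispecific retinas had 28 to 42.1 CPM and anti-VEGFA retinas 22.8 to 30.4 CPM. Ocln at P19 had 4.44, 4.38, 7.8 and 5.7 CPM with anti-VEGFA, all above the IgG retinas at 1.04 to 4.22 CPM (1.99-fold, adjusted p = 0.49), a non-overlap shown by 5.4% of all genes. Abcb1a stood at 0 to 1.26 CPM in all antibody retinas of P19, and its IgG mean rests on 1 retina, so no fold is read.

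Set against control retinas, the treated OIR groups gave 2 calls among the 8 members, both with anti-ANG-2 at P19. Cldn5 rose 2.51-fold (12.3, 11.7, 10.1 and 7.67 CPM against 3.16 to 5.89 CPM, 10.4 ± 2.07 against 4.15 ± 1.23, SD, n = 4, edgeR adjusted p = 0.0031). Tjp1 fell to 0.589-fold (20.8 ± 5.42 against 35.3 ± 3.12 CPM, adjusted p = 0.01). Neither overlapped the controls. In this comparison 10.7% of all genes were called, 7.06% higher and 3.65% lower, and 15.3% did not overlap, the highest shares of all comparisons made here.

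The Cldn5 call with anti-ANG-2 held under all 15 other settings and without any 1 of the 8 libraries. The Tjp1 call ended without anti-ANG-2 replicate 2 (adjusted p = 0.062) and with the mitochondrial share as a covariate (0.29). Mitochondrial genes took 6.45% to 10.6% of the counts in the anti-ANG-2 retinas at P19 and 5.24% to 5.76% in the controls. The photoreceptor list summed to 75900 to 106000 CPM against 60500 to 68400 CPM, with 5 of 14 genes called higher. On TPM values the median of all genes was -0.44 in this comparison, and Tjp1 was -1.11 and Cldn5 0.65 in log2 (limma adjusted p = 0.0014 and 0.034). Relative to that median, which was not tested, they were -0.67 and 1.09.

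With the other antibodies at P19, Cldn5 was 2.0-fold above control with anti-VEGFA (8.32 ± 0.654 CPM, edgeR adjusted p = 0.052) and 2.15-fold with the bispecific antibody (8.92 ± 3.22 CPM, 0.1). With its 2 entries summed, the adjusted p was 0.029 and 0.055. No member was called in either comparison (edgeR, 2 and 1 members at an unadjusted p under 0.05), against 4.73% and 0.443% of all genes. Under the unadjusted threshold were 4110 and 2529 of all 23495 genes. Cav1 was 1.48-fold above control with anti-VEGFA (adjusted p = 0.067). With that antibody Cldn5, Cav1 and Tjp1 (0.753-fold, adjusted p = 0.29) did not overlap the controls, as 12% of all genes did not. Without bispecific P19 replicate 3, the shallowest library, the calls of the 3 treated groups at P19 went from 2 to 5, with Cldn5 higher in all 3 groups and Cav1 higher with anti-VEGFA. Calls among all genes without that library were not counted, so the change is not read as particular to the members. These comparisons share the control retinas.

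At P17 no member of the treated OIR groups passed against control (edgeR, 0 of 24), against 0.643%, 0.953% and 0.834% of all genes. At an unadjusted p under 0.05 were 2, 1 and 1 members, against 2412, 2272 and 2542 of all 23495 genes. DESeq2 called 2 members, but the shares of all genes given here are those of edgeR, so this count has no share beside it. Cav1 was 1.52-fold, 1.60-fold and 1.58-fold above control with anti-VEGFA, anti-ANG-2 and the bispecific antibody (adjusted p = 0.14, 0.066 and 0.083). The anti-VEGFA and anti-ANG-2 retinas did not overlap the controls, which 6.51% and 7.99% of all genes also showed. Slc2a1 was 1.33-fold, 1.26-fold and 1.26-fold above control (adjusted p = 0.4, 0.62 and 0.53), with overlap in each.

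Among the other junction genes, Cldn12 fell with anti-ANG-2 at P19 against control (39.7 ± 14.7 against 91.1 ± 10.7 CPM, 0.437-fold, adjusted p = 0.00017) and with the bispecific antibody (0.527-fold, 0.033). These were the only calls among the 25 in the 6 comparisons of treated OIR with control retinas. Of the 13 vesicle genes tested, 2 rose and 1 fell with anti-ANG-2 at P19: the clathrin light chain Clta (1.5-fold) and the cavin Cavin3 (1.65-fold) rose, and the clathrin heavy chain Cltc fell (0.609-fold). The median log2 change of the 13 in that comparison was -0.45, against -0.06 for all genes. Anti-VEGFA at P19 gave 1, a fall of the membrane-bending protein Pacsin2 (0.603-fold, adjusted p = 0.012). Neither the 20 transporter genes nor the 22 Norrin and Wnt genes gave a call in any of the 6 (edgeR). At an unadjusted p under 0.05 were 3 to 5 transporter and 0 to 4 Norrin and Wnt genes. Of all 23495 genes, 2272 to 5246 were under that threshold. The pericyte and smooth muscle list gave 2, 3 and 3 of 13 higher at P17 and 2, 4 and 1 at P19 with anti-VEGFA, anti-ANG-2 and the bispecific antibody, led at P19 by Higd1b, which stood 4.24-fold, 8.29-fold and 6.00-fold above control.

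The antibodies were also set against one another at their own doses, 0.2 µg/µl for each single antibody and 0.4 µg/µl for the bispecific one. Between anti-VEGFA and anti-ANG-2 at P17, sex and antibody cannot be told apart. No member passed in the 3 pairs at either age (edgeR, 0 of 24 at each age). At an unadjusted p under 0.05 there were 1, 0 and 0 members at P17 and 3, 1 and 1 at P19. Of all 23495 genes, 657, 676 and 662 were under that threshold at P17, and 3940, 2217 and 2725 at P19. DESeq2 called 0 members at P17 and 1 at P19, but the shares of all genes given here are those of edgeR. At P17 0% of all genes were called in each pair, and at P19 0.238% for anti-VEGFA against anti-ANG-2, 0.0553% for bispecific against anti-VEGFA and 0% for bispecific against anti-ANG-2.

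At P19 the bispecific retinas had more Tjp1 than the anti-ANG-2 retinas, without overlap, which 2.6% of all genes showed (34.5 ± 6.93 against 20.8 ± 5.42 CPM, SD, n = 4, 1.66-fold, edgeR adjusted p = 0.12). The interval of that log2 difference was 0.33 to 1.13, and it was called by DESeq2 and without anti-ANG-2 replicate 4. Between anti-VEGFA and anti-ANG-2 at P19, Ocln (2.47-fold, adjusted p = 0.21), Cav1 (1.36-fold, 0.21) and Mfsd2a (0.359-fold, 0.17) did not overlap and did not pass, and 4.62% of all genes did not overlap in this pair. Mfsd2a was 1.90-fold higher with the bispecific antibody than with anti-VEGFA (adjusted p = 0.64), without overlap, against 2.97% of all genes.

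From P17 to P19, no member was called in control retinas or in OIR with IgG, anti-VEGFA or the bispecific antibody (edgeR, 0 of 8 each). Of all genes, 0.0979%, 0.00851%, 0% and 0.0298% were called. At an unadjusted p under 0.05 were 1, 1, 3 and 1 members, against 1413, 1102, 2140 and 1358 of all 23495 genes. With 4 retinas in a group, a missing call does not show that a gene stayed the same. Mfsd2a (0.436-fold) and Slc2a1 (0.819-fold) did not overlap between ages with IgG, against 3.76% of all genes, nor Ocln (2.28-fold) with anti-VEGFA, against 3.56%, and none of these passed (adjusted p = 1, 1 and 0.51). With anti-ANG-2, 2 of 8 fell, against 4.83% of all genes in either direction and 1.51% lower. Tjp1 went from 36.9, 30.9, 38.8 and 36.3 CPM to 19.2, 13.8, 25.5 and 24.7 CPM (0.582-fold, adjusted p = 0.02). Cav1 went from 162, 154, 191 and 185 CPM to 102, 123, 114 and 114 CPM (0.654-fold, adjusted p = 0.045). Neither gene overlapped between the ages, which was so for 10.7% of all genes.

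Both falls depended on single libraries. Tjp1 lost its call without anti-ANG-2 P17 replicate 1, 3 or 4 or P19 replicate 1 or 2 (adjusted p up to 0.12), and Cav1 without any of 7 of the 8, all but P19 replicate 4 (up to 0.21). Cav1 also lost its call without any 1 of 10 libraries of other groups, which enter only through the fit of all libraries: IgG P17 replicates 2 and 3, anti-VEGFA P17 replicate 4, bispecific P17 replicates 2 and 4, control P19 replicates 1, 2 and 4, IgG P19 replicate 2 and anti-VEGFA P19 replicate 4. Neither was called without the 5 libraries that stand apart (0.071 and 0.084) or with the mitochondrial share as a covariate (0.48 and 0.55). Nor was either called with the log2 of the summed Y-linked CPM as a covariate (0.093 and 0.076). The mean log2(CPM + 1) of the Y-linked genes was 0 in all 4 anti-ANG-2 retinas at P17. At P19 that mean was 5.11, 5.05, 1.98 and 0.09 in replicates 1 to 4. Sex and age therefore differ together in part of this comparison. In the same comparison 9 of 14 photoreceptor genes rose, and their part was not tested. In bispecific retinas Cav1 was 0.638-fold at P19 relative to P17, with overlap (adjusted p = 0.36).

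To see what varied together with the barrier genes apart from the groups, each gene's log2(CPM + 1) was compared with the mean of marker lists over the 40 retinas, after the group means were removed. All points come from shared libraries, whose depth and RNA makeup enter both axes. Müller glia and astrocyte, hypoxia, endothelial and photoreceptor lists were used, which gave 32 relations, with p from 100000 permutations of retinas within groups and adjustment over the 32.

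Slc2a1 followed the Müller glia and astrocyte list, with Pearson's r = 0.832 and Spearman's coefficient = 0.736 (n = 40, permutation p = 1e-05 for both, the smallest these permutations can give, adjusted 0.00016). Without the 2 retinas farthest out on the list, r was 0.775. Its r with the hypoxia list, which does not hold Slc2a1, was 0.723 and its Spearman coefficient 0.702 (permutation p = 8e-05 and 4e-05, adjusted 0.00085 and 0.00043), and r was 0.631 without the 2 farthest. Its r with the endothelial list was -0.172 and its Spearman coefficient -0.216 (permutation p = 0.43 and 0.23).

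Cav1 followed the same lists. Its r with the Müller glia and astrocyte list was 0.782 and its Spearman coefficient 0.693 (n = 40, permutation p = 1e-05 for both, adjusted 0.00016), and r was 0.65 without the 2 farthest retinas. With the hypoxia list r was 0.667 and Spearman's coefficient was 0.564 (permutation p = 0.0012 and 0.0017, adjusted 0.0094 and 0.014), and r was 0.546 without the 2 farthest. With the endothelial list r was -0.291 and Spearman's coefficient -0.187 (permutation p = 0.19 and 0.33).

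**Figure D4:**
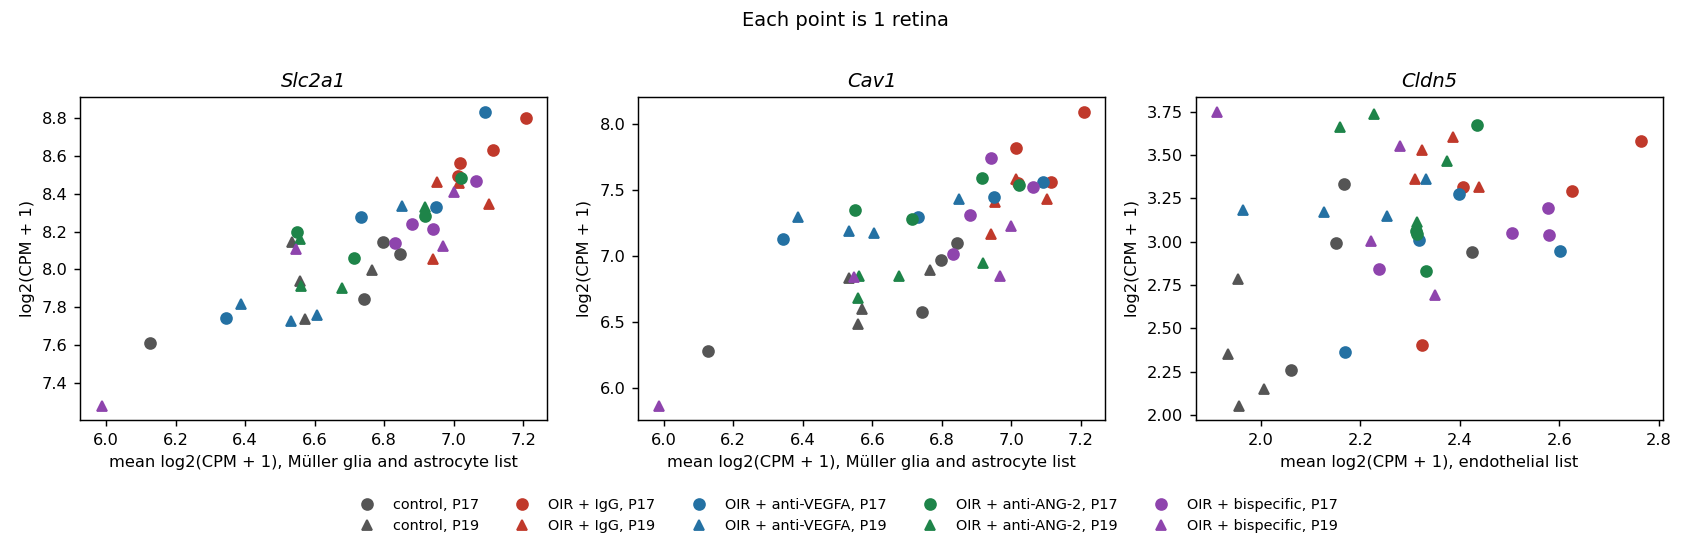
Level of Slc2a1 and Cav1 against the mean of the Müller glia and astrocyte list, and of Cldn5 against the mean of the endothelial list, both as log2(CPM + 1), 1 point per retina, coloured by group with circles for P17 and triangles for P19. Slc2a1 and Cav1 rise along their list, and Cldn5 scatters widely along the endothelial one.

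Cldn5, the member most tied to endothelium in textbooks, had r = 0.216 and Spearman's coefficient = 0.148 with the endothelial list (n = 40, permutation p = 0.31 and 0.43). Its r with the Müller glia and astrocyte list was 0.445 and its Spearman coefficient 0.268 (permutation p = 0.036 and 0.17, adjusted 0.23 and 0.54), and r was 0.242 without the 2 farthest retinas. For the other 5 members (Ocln, Tjp1, Mfsd2a, Abcb1a and Lsr), no relation with the 4 lists passed after adjustment. In sparse counts such as those of Abcb1a a weak r says little.

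**Figure D5:**
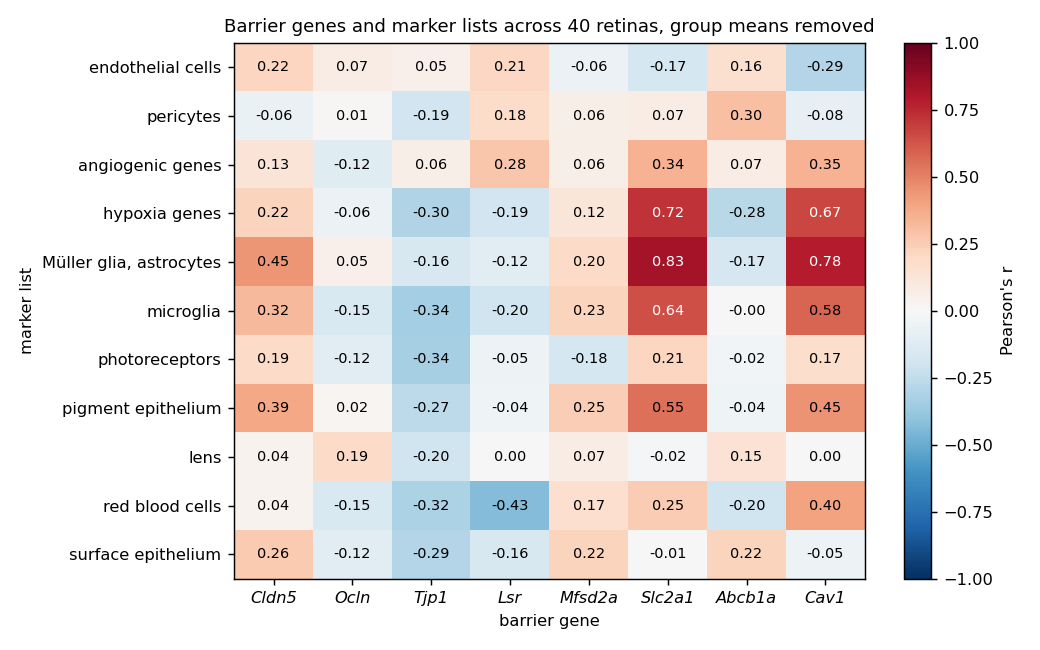
Pearson's r between each barrier gene and the mean of 11 marker lists over 40 retinas with group means removed, as coloured cells with the value printed. Slc2a1 and Cav1 have their highest values with the Müller glia and astrocyte list (0.83 and 0.78) and negative values with the endothelial list, and with the microglia list they have 0.641 and 0.579.

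Between members, the highest r over the 40 retinas was that of Slc2a1 with Cav1, 0.793 (0.773 with group means removed), given as a description. Next came Cldn5 with Slc2a1 at 0.358 (0.466), whereas the junction genes Cldn5 and Tjp1 had -0.382 (-0.179) and Cldn5 and Ocln 0.03. Among 11420 genes of at least 5 CPM on average, those most like Slc2a1 over the 40 retinas were Gnai2 (r = 0.909), Mtpn (0.893) and Ctsc (0.89). Those most like Cav1 were Pkia (0.886), Gpm6a (0.878) and Bzw1 (0.869). For Cldn5 they were Apoe (0.7), Selenop (0.696) and Rpl6 (0.692), and for Tjp1 they were Stat2 (0.765), Smurf1 (0.757) and Sdk1 (0.706).

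The 4 scarce members had no close match. The highest values, among 11421 genes, were 0.606 for Mfsd2a with Aen, 0.543 for Lsr with Zbtb26, 0.537 for Ocln with Klhl32 and 0.456 for Abcb1a with Tex9. Spread within groups ran the same way: the median coefficient of variation was 0.132 for Cav1, 0.136 for Slc2a1 and 0.177 for Tjp1, 0.289 for Cldn5 and 0.307 for Lsr, and 0.443 for Mfsd2a, 0.464 for Ocln and 0.933 for Abcb1a. The ratio of the highest to the lowest group mean was 1.62 for Slc2a1, 2.1 for Cav1, 2.51 for Cldn5, 1.72 for Tjp1, 1.7 for Lsr, 2.46 for Ocln and 2.99 for Mfsd2a.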

How the data were processed

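Per the submitters' processing notes, reads were handled with STAR 2.7.10a and RSEM 1.3.3 on GRCm38.p4; the annotation and the strand setting are not given in the sources used here. The authors deposited RSEM expected counts and TPM for 42037 symbols in 40 libraries; of the values above 0, 15.7% were fractional, and they were rounded before count tests. Per the labels' protocols, RNA of 1 retina was made into cDNA with SMART-Seq mRNA and into libraries with Nextera XT. No molecular identifiers are mentioned, so reads are not independent molecules.

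Counts were fitted with edgeR 4.0.16 in R 4.3.3 (TMM, filter by group, robust quasi-likelihood, 10 groups together). Adjusted p-values are Benjamini-Hochberg over 23495 genes within a comparison, and a gene was called under 0.05. Intervals of log2 differences are 95% intervals, taken as 1.96 SE. CPM is the expected count over the TMM-scaled library size. A first test on simulated data used the fit without its robust setting and placed changes only in genes of higher counts. It therefore does not cover the exact fit used here or members as scarce as Abcb1a. Alternatives used limma 3.58.1 (voom with weights, and limma-trend on log2(TPM + 1) and log2(TPM + 0.1) for genes with a mean above 0.5 TPM), DESeq2 1.42.0, RLE factors, no filter, a replicate block, covariates, only the groups compared, and each library left out. Summed copies, the Müller glia and astrocyte covariate, the count without 5 libraries and the tests of an antibody effect between ages were added after seeing the data.

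The members and gene lists were chosen with earlier results of these data known. Genes were named by rule: the 8 members, up to 4 called genes of a pathway list with the smallest p, the 3 genes most like a member, and Abcb1b, Vegfa, Plvap, Pecam1, Cdh5, Rpe65 and Cryaa; 1 further gene of the rule is not reported here. Gene coordinates come from GENCODE vM21 (GRCm38) and promoters from RefSeq, matched by symbol for 8 of 8 members.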

Additional observations from a re-analysis of the deposited data

Results flagged for a closer look

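In 80 sets of 4 retinas (8 genes in 10 groups), 1 retina stood far from the other 3 in 4 sets, and chance alone would give about 1 in 20, or 4. With IgG at P19, replicate 4 had 6.81 CPM of Abcb1a (134 counts) against 0.396 to 0.845 CPM in the others. With anti-VEGFA at P19, replicate 2 had 9.29 CPM of Cldn5 against 7.88 to 8.08 CPM, a gap of little size in itself. With anti-VEGFA at P19, replicate 1 had 321 CPM of Slc2a1 against 211 to 225 CPM. With anti-VEGFA at P17, replicate 1 had 5.17 CPM of Lsr against 3.22 to 3.55 CPM. No difference of an effect between the ages was called for any member in 32 tests (edgeR), which does not show that the effects were equal.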

How the results depend on the processing

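Of 5510 values of the 8 genes under other settings, 5403 kept their side of the threshold, 60 passed it and 45 no longer did, and 2 changed sign: Slc2a1 with anti-ANG-2 against control at P19 was 0.13 and not called on counts, and -0.46 and called on log2(TPM + 1) and -0.46 on log2(TPM + 0.1), or -0.02 and 0.16 relative to the median of all genes on each scale. Of the 5403, 382 changed sign with no call in either fit. The counts of calls below are of members only. The share of all genes called under each other setting is not set beside them. From the 23495 genes on counts to the 18183 genes on TPM, the median moved by -0.20 for OIR at P17. It moved by -0.38 for anti-ANG-2 against control at P19. The sets of genes differ, and the cause was not tested.

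For OIR with IgG at P17, the 2 calls became 0 with pigment epithelium and lens covariates and with either TPM pseudocount, and 1 with the Müller glia and astrocyte covariate. At P19 the 1 call became 0 without the filter, with the Y-linked covariate and with the Müller glia and astrocyte covariate, and 2 with RLE factors, pigment epithelium and lens covariates, the mitochondrial share, without the 5 libraries, voom, DESeq2 and only the groups compared. With the endothelial covariate it stayed 1, but the gene was Cav1 (adjusted p = 0.038) and not Cldn5 (0.17). Leaving out 1 library gave 1 to 2 at P17 and 0 to 1 at P19.

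For the antibodies against IgG at P19, 0 became 2 with either TPM pseudocount and 1 with DESeq2, and leaving out 1 library gave 0 to 0. For treated OIR against control at P17, 0 became 1 with RLE factors, the Müller glia and astrocyte covariate or without the 5 libraries, 2 with the endothelial covariate, the mitochondrial share or DESeq2, and 3 with voom. It was 0 to 2 with 1 library left out, at 2 without control replicate 1 and 1 without bispecific replicate 1. At P19, 2 became 4 with RLE factors, pigment epithelium and lens covariates, the Müller glia and astrocyte covariate, without the 5 libraries and on log2(TPM + 0.1), 5 with voom and DESeq2, and 1 with the mitochondrial share, and it was 1 (without anti-ANG-2 replicate 2) to 5 (without bispecific replicate 3) with 1 library left out. Between antibodies at P19, 0 became 2 with the Müller glia and astrocyte covariate and 1 with either TPM pseudocount and DESeq2, and it was 0 to 1 with 1 library left out, at 1 without anti-ANG-2 replicate 4. From P17 to P19, 2 became 1 without the filter, with pigment epithelium and lens covariates and with only the groups compared, 0 with the Y-linked covariate, the mitochondrial share and without the 5 libraries, and 4 with either TPM pseudocount, and it was 0 to 2 with 1 library left out.

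No mouse or litter is given that would pair same-numbered retinas. Their deviations from the group means had correlations of -0.131 to 0.151 between compared groups, which cannot exclude a pairing. With a replicate block, the calls were 2 for OIR with IgG at P17, 2 at P19 and 1 for treated OIR at P17. Depth limits Abcb1a, which had 3 counts or fewer in 11 of 40 retinas.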
